A study of Mus musculus with 3 samples.

Results

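The genes described here encode the enzymes and readers that write, convert and recognise modified cytosine: the TET oxidase genes Tet1, Tet2 and Tet3, the DNA methyltransferase genes Dnmt1, Dnmt3a and Dnmt3b, the reader genes Uhrf1 and Uhrf2, and the DNA glycosylase gene Tdg. They are 9 of 11722 protein-coding genes that covered at least 3 bins of 10 kb with a value in every library. Members were chosen by name, and their bins are those that overlap the RefSeq gene body, 65 of 262974 bins in all. What was measured is 5-hydroxymethylcytosine (5hmC) in the DNA of these genes, not their expression.

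Cerebellum DNA of Mus musculus was profiled in 3 libraries, 1 per group: DDD-seq of control tissue, DDD-seq of tissue after chronic sleep deprivation (CSD), and ACE-seq of control tissue. Values for all 3 libraries are given below in this order: control DDD-seq, CSD DDD-seq and control ACE-seq. In DDD-seq, 5hmC is glycosylated and thereby protected from the double-stranded DNA deaminase domain SsdAcat, so that a cytosine still read as cytosine is scored as 5hmC. ACE-seq is a related method in which a deaminase of the APOBEC family is used, although the labels give all 3 libraries the same protocol text. Strain, sex, age, the number of animals and the length of the sleep deprivation are not given in the sources used here. Since every group holds a single library, replicate error cannot be estimated: no p-value is given, and what is compared are these 3 libraries rather than the conditions or methods they stand for. The errors printed below are standard errors (SE) over the bins inside a gene. The tissue is a mixture of cell types, so a change in the share of cells that carry 5hmC and a change in the amount per cell cannot be told apart, and no marker transcripts were measured that could check the tissue label.

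DNMT3A and DNMT3B place methyl groups on unmodified DNA, and DNMT1 copies the pattern to the new strand after replication, guided by UHRF1, which binds hemimethylated CpG sites. TET enzymes oxidise 5-methylcytosine to 5hmC and on to formyl- and carboxylcytosine, which TDG removes so that base excision repair can restore cytosine. UHRF2, the paralogue of UHRF1, binds 5hmC. Neurons hold more 5hmC than most other cell types, and in brain the mark lies mainly over the bodies of expressed genes.

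The DNA just upstream of a gene start is where CpG sites, the main substrate of this pathway, are dense in many genes. The sequences below (RefSeq, GRCm38.p6, 5′ to 3′ on the strand of the gene) show this stretch for the gene with the highest 5hmC level, its paralogue, the gene with the lowest level in control DDD-seq, and the gene with the clearest CSD minus control difference. Capitals mark the dinucleotide CG, which reads the same on both strands. Each sequence stops at the edge of the annotated gene body.
Uhrf2, chr19:30030263-30030429, plus strand: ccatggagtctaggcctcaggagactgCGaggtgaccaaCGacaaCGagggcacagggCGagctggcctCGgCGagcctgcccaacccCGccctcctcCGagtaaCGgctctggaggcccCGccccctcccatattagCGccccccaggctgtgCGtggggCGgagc
Uhrf1, chr17:56303087-56303336, plus strand: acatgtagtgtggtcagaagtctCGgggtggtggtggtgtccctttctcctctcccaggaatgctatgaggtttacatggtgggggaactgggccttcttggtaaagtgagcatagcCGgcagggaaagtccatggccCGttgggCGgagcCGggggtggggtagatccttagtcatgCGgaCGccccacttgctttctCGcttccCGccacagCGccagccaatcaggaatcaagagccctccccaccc
Dnmt1, chr9:20959889-20960138, minus strand: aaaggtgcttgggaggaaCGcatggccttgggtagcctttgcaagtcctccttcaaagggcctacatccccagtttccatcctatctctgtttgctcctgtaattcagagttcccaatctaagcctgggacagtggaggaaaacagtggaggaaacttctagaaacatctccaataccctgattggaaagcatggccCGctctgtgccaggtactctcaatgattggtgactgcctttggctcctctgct
Tdg, chr10:82629588-82629813, plus strand: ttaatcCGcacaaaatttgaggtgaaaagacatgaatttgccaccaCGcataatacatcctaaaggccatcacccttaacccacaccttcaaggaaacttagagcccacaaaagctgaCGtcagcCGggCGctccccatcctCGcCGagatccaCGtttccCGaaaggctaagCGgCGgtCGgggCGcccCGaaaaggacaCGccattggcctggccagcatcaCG
These stretches hold 13 CG in 167 bases for Uhrf2, 10 in 250 for Uhrf1, 2 in 250 for Dnmt1 and 16 in 226 for Tdg. RefSeq lists further starts inside the annotated bodies of Dnmt1 and Uhrf1, and the 250 bases before the CG-richest of these hold 26 CG in Dnmt1 and 30 in Uhrf1. Counted the same way over the 250 bases before each start, Tet2 had 51 CG, a number reached by 0.0800% of 21262 protein-coding gene starts, and the 3 starts of Dnmt3a had 38, 40 and 15. The numbers were 23 for Uhrf2, 21 for Dnmt3b, 19 for Tdg, 17 for Tet3 and 15 for Tet1, against a median of 10 over all starts, 93.4% of which hold at least 1 CG.

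Gene-body 5hmC ran from low to high over the family, and no gene differed from the next by more than 2 SE. Dnmt1, Dnmt3b and Uhrf1 had the lowest means in each library, and Tet1, Dnmt3a and Tdg lay between. Uhrf2, Tet3 and Tet2 had the highest means in each library. Their order among themselves depended on the averaging: by means it was Uhrf2, Tet3 and Tet2 in all 3 libraries, but with the median over bins Tet3 (2.51%) stood above Uhrf2 (2.42%) in CSD DDD-seq and Tet2 (2.12%) above Tet3 (1.95%) in control ACE-seq. The median over the 9 genes was 1.51% in control DDD-seq, 1.62% in CSD DDD-seq and 1.53% in control ACE-seq, against 1.43%, 1.42% and 1.39% for all genes. In the same order, 5, 6 and 6 of the 9 genes lay above the median of all genes, so the list as a whole was spread over both sides of it.

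**Figure D1:**
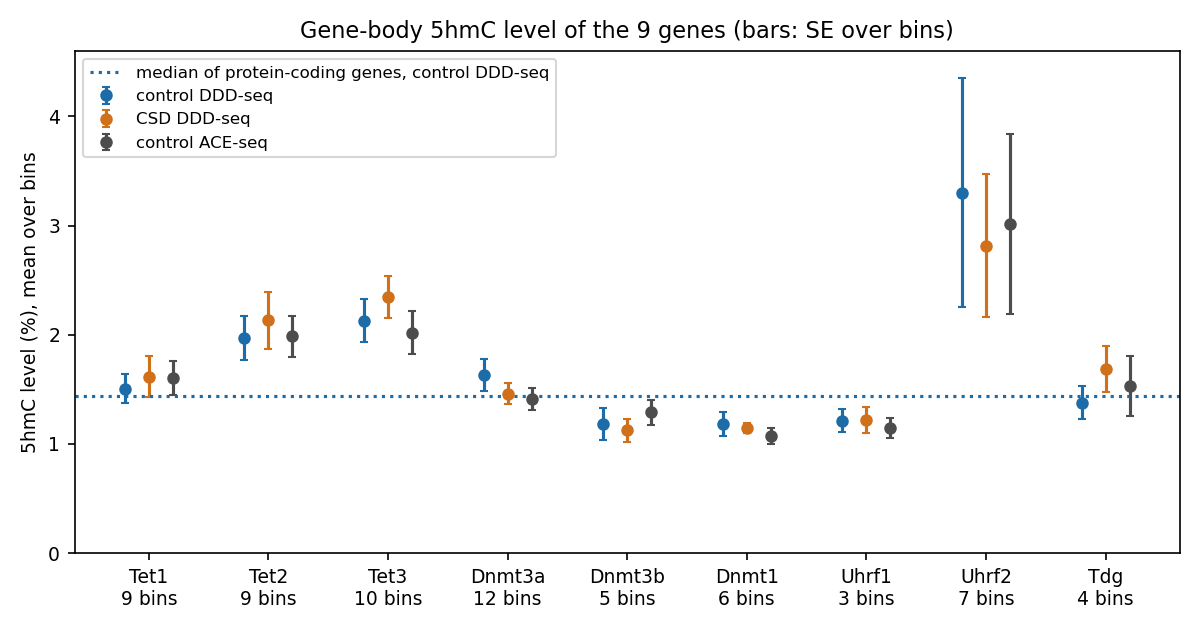
Gene-body 5hmC level in percent (y axis) of the 9 genes (x axis, with the number of 10 kb bins) in the 3 libraries; points are means over bins, bars are SE over bins, and the dotted line is the median of all protein-coding genes in control DDD-seq (1.43%). Uhrf2, Tet3 and Tet2 lie above the line and Dnmt3b, Dnmt1 and Uhrf1 below it in every library.

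Among the TET genes, Tet3 (chromosome 6, 83362373 to 83457208, 10 bins) had 2.13% ± 0.20 in control DDD-seq, 2.35% ± 0.19 in CSD DDD-seq and 2.02% ± 0.19 in control ACE-seq. Tet2 (chromosome 3, 133463677 to 133545136, 9 bins) had 1.97% ± 0.20, 2.13% ± 0.26 and 1.98% ± 0.19 in the same order. Tet1 (chromosome 10, 62804570 to 62887469, 9 bins) had 1.51% ± 0.13, 1.62% ± 0.19 and 1.60% ± 0.16. Tet1 was thus the lowest of the oxidase genes in all 3 libraries, while Tet3 and Tet2 differed by 0.162, 0.216 and 0.0346 percentage points, less than the SE of that difference (0.284, 0.323 and 0.270 points).

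Of the de novo methyltransferase genes, Dnmt3a (chromosome 12, 3801559 to 3914443, 12 bins), the longest gene of the family, had 1.63% ± 0.14 in control DDD-seq, 1.46% ± 0.10 in CSD DDD-seq and 1.42% ± 0.10 in control ACE-seq. Dnmt3b (chromosome 2, 153649411 to 153687730, 5 bins) had 1.18% ± 0.15, 1.12% ± 0.10 and 1.29% ± 0.12. Dnmt3b was the lower of the pair in each library.

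The maintenance genes were low throughout. Dnmt1 (chromosome 9, 20907206 to 20959888, 6 bins) had 1.18% ± 0.11 in control DDD-seq, 1.15% ± 0.05 in CSD DDD-seq and 1.07% ± 0.07 in control ACE-seq. Uhrf1 (chromosome 17, 56303337 to 56323486, 3 bins) had 1.21% ± 0.11, 1.22% ± 0.12 and 1.15% ± 0.09. Among all genes, Dnmt1 stood at percentile 19.3, 15.0 and 13.0, and Uhrf1 at percentile 23.3, 23.2 and 20.4.

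Uhrf2 (chromosome 19, 30030430 to 30093726, 7 bins) had the highest mean of the 9 genes in every library, 3.30% ± 1.04 in control DDD-seq, 2.81% ± 0.65 in CSD DDD-seq and 3.02% ± 0.82 in control ACE-seq. These levels stood at percentile 97.3, 95.0 and 96.2 of all genes. Uhrf2 exceeded its paralogue Uhrf1 by 2.09 ± 1.05, 1.60 ± 0.66 and 1.87 ± 0.83 points, which is beyond 2 SE in CSD DDD-seq and control ACE-seq but not in control DDD-seq. Tdg (chromosome 10, 82629814 to 82650799, 4 bins) had 1.38% ± 0.15, 1.69% ± 0.21 and 1.53% ± 0.28.

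In the order of levels no gene differed from the next by more than 2 SE in any library. Of the 36 pairs of genes, 10 differed by more than 2 SE in the same direction in all 3 libraries. Tet3 exceeded Dnmt3a, Uhrf1, Dnmt3b and Dnmt1, Tet2 exceeded Uhrf1, Dnmt3b and Dnmt1, Uhrf2 exceeded Dnmt3b and Dnmt1, and Dnmt3a exceeded Dnmt1. No pair within the TET genes is among these 10. Pairs of other genes were not counted, so no background share can be set beside this number. The SE is over neighbouring bins, which are not independent, so these pairs describe the 3 libraries only.

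The high level of Uhrf2 was concentrated in the second bin of the gene, counted from its 5′ end (chromosome 19, 30040001 to 30050000), with 9.42% in control DDD-seq, 6.33% in CSD DDD-seq and 7.37% in control ACE-seq. This was the highest of the 65 bins in each library, at percentile 99.9, 99.6 and 99.8 of all bins of the genome. The bin that holds the gene start, where the CG-rich sequence printed above lies, had 2.35%, 1.95% and 2.20%. The next 2 bins had 2.71% and 3.05% in control DDD-seq, 2.64% and 3.55% in CSD DDD-seq, and 3.65% and 3.66% in control ACE-seq. The last bin, which also overlaps the neighbouring gene Gldc, had 1.13%, 1.17% and 1.19%. Without the highest bin, Uhrf2 had 2.28% ± 0.27, 2.23% ± 0.34 and 2.29% ± 0.46, values close to those of Tet3 and Tet2; in CSD DDD-seq it was then below Tet3, which had 2.24% without its own highest bin.

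**Figure D2:**
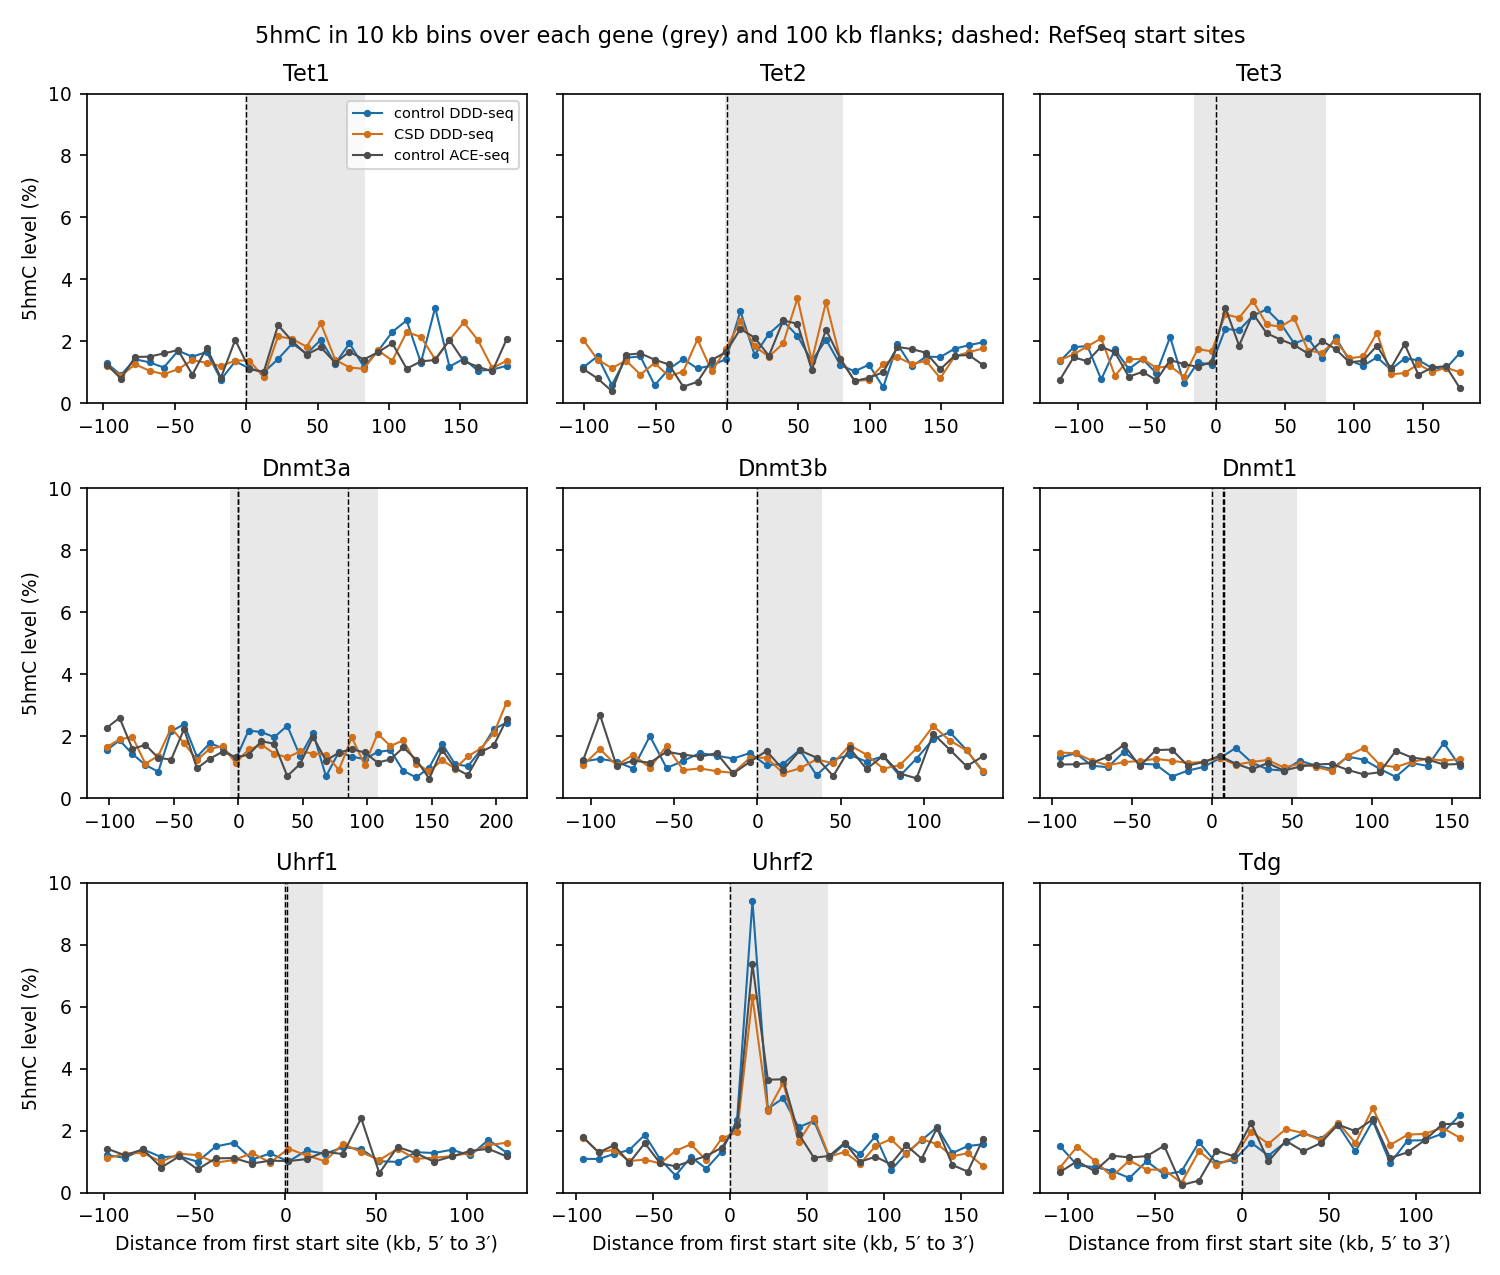
5hmC level in percent (y axis) of each 10 kb bin over the 9 genes (grey) and 100 kb on either side, plotted against the distance in kb from the first RefSeq start site in the direction of transcription; lines are the 3 libraries and dashed lines the RefSeq start sites. The peak of Uhrf2 reaches 9.42%, 6.33% and 7.37%, whereas no bin of the other 8 genes exceeds 3.39%.

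In the other 8 genes, bins ranged from 0.702% to 3.03% in control DDD-seq, from 0.803% to 3.39% in CSD DDD-seq and from 0.712% to 3.09% in control ACE-seq. The lowest, median and highest bins of Tet3 were 1.249%, 2.23% and 3.03% in control DDD-seq. They were 1.64%, 2.51% and 3.31% in CSD DDD-seq, and 1.18%, 1.95% and 3.09% in control ACE-seq. Those of Tet2 were 1.24%, 2.06% and 2.97%, 1.38%, 1.84% and 3.39%, and 1.09%, 2.12% and 2.67%. The bins of Dnmt1 stayed between 0.886% and 1.62% over all libraries, so that its range did not reach the median bin of Tet2 or Tet3 in any of them. In Dnmt3a, the bin at 3840001 to 3850000 had 2.34% in control DDD-seq, 1.31% in CSD DDD-seq and 0.712% in control ACE-seq, whereas the gene means ranged only from 1.42% to 1.63%.

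Across the 65 bins, levels in control and CSD DDD-seq were related with Pearson's r of 0.842 and Spearman's rho of 0.715, levels by DDD-seq and ACE-seq of control tissue with r of 0.889 and rho of 0.726, and levels in CSD DDD-seq and control ACE-seq, which differ in both condition and method, with r of 0.876 and rho of 0.733. Without the highest Uhrf2 bin, r was 0.727, 0.728 and 0.776 and rho 0.701, 0.713 and 0.721. Over 111755 autosomal genic bins, rho was 0.662, 0.631 and 0.646. These describe bins of the same DNA regions, which share base composition, and neighbouring bins are not independent.

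The 5hmC level of Uhrf2, Tet2 and Tet3 exceeded that of the DNA around each gene in every library, whereas the other 6 genes had between 0.872 and 1.19 times the level of their surroundings. The flanks, 100 kb on either side, had levels between 1.11% and 1.51% in control DDD-seq, 1.21% and 1.62% in CSD DDD-seq, and 1.18% and 1.52% in control ACE-seq. Gene bodies exceeded their flanks by at least 25% in 3 of 9 genes in each library, against 25.2% of all genes in control DDD-seq, 23.9% in CSD DDD-seq and 26.2% in control ACE-seq. The same 3 genes reached it in all 3 libraries, 33.3% of the 9 genes against 17.3% of all genes. They were also the only ones above their flanks by any margin in all 3 libraries. At that bound the share was 33.3% of the 9 genes against 37.9% of all genes. Both comparisons rest on 3 genes.

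Uhrf2 had 2.497, 2.11 and 2.37 times its flanks in control DDD-seq, CSD DDD-seq and control ACE-seq. Its excess was 1.98 ± 1.05, 1.48 ± 0.66 and 1.74 ± 0.83 points, which is within 2 SE in control DDD-seq. Tet3 had 1.53, 1.71 and 1.58 times, and Tet2 1.50, 1.65 and 1.65 times. The excess of Tet3 and Tet2 was beyond 2 SE in every library. Leaving out the highest bin of each gene, the lowest of these ratios were 1.67 in Uhrf2, 1.47 in Tet3 and 1.48 in Tet2, so that the peak bin alone did not carry the excess of Uhrf2. For Dnmt1 the ratio was 1.06, 0.949 and 0.905, for Dnmt3b 0.894, 0.872 and 0.998, and for Uhrf1 0.946, 0.987 and 0.947. Tet1 had 0.998, 1.08 and 1.10 times, Dnmt3a 1.08, 0.904 and 0.931, and Tdg 0.998, 1.19 and 1.11.

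Many flank bins lie over other genes. Against the flank bins without a protein-coding gene, Tdg reached 1.48, 1.88 and 1.71 times over 9 such bins, and Dnmt3a 1.39 times in control DDD-seq alone. Ratios to gene-free flank bins were not computed for all genes. Whether such values are common among genes is therefore not known. Tet3 had only 2 such bins and gave no value, whereas Tet2 and Uhrf2 had ratios of at least 1.58 and 2.37.

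**Figure D3:**
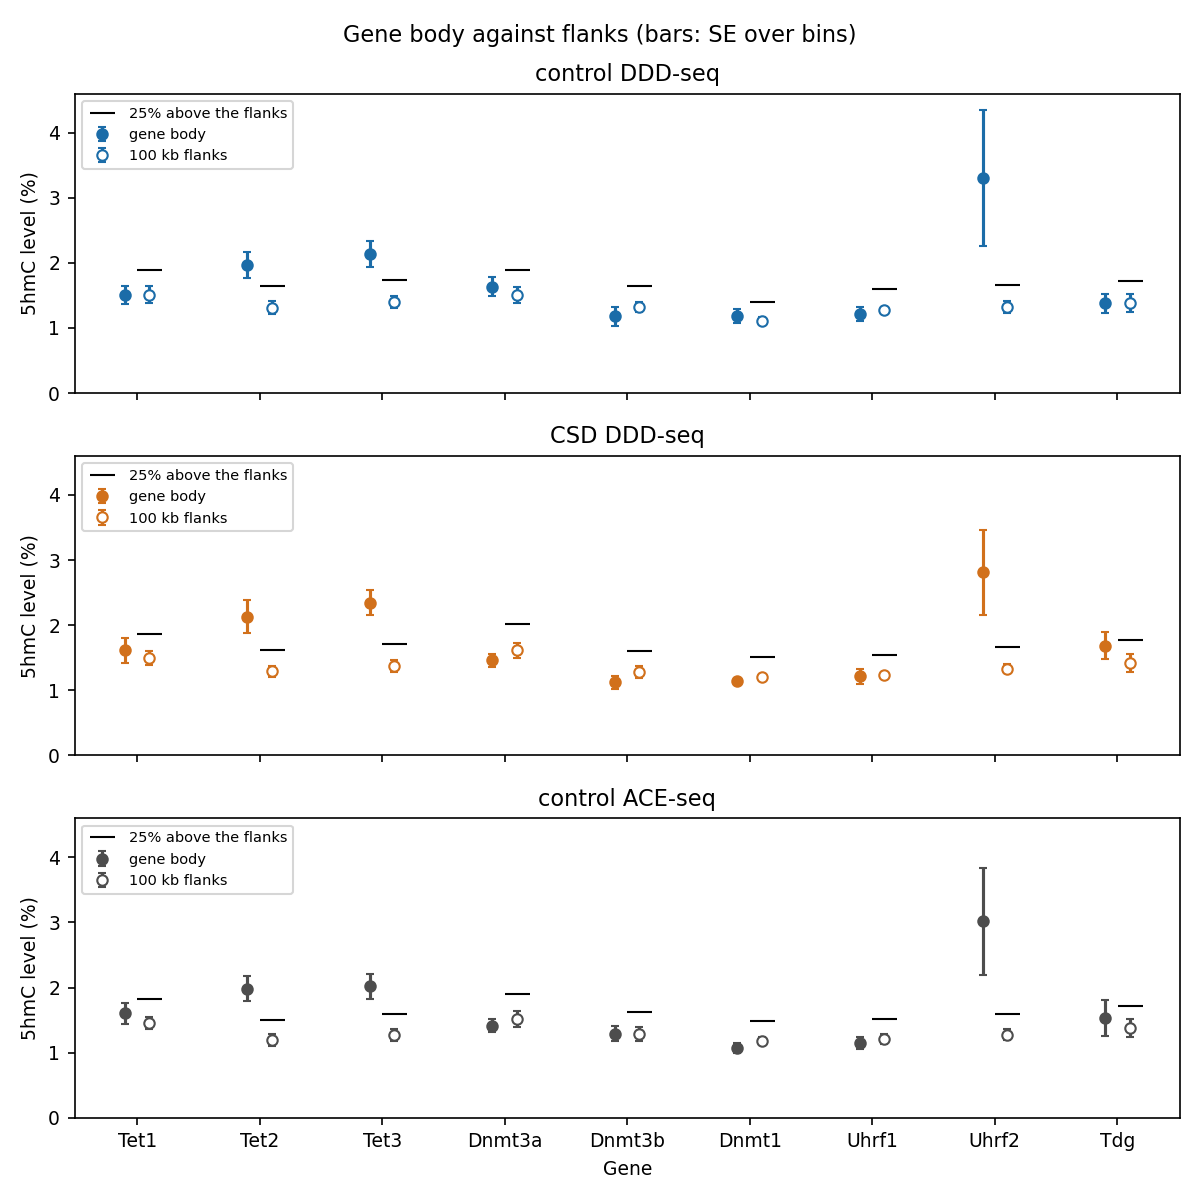
5hmC level in percent (y axis) of the gene body (filled) and of the 100 kb flanks (open) of each gene (x axis), with 1 panel per library; bars are SE over bins and black marks lie 25% above the flanks. Only Uhrf2, Tet3 and Tet2 have bodies above that mark, in all 3 panels.

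Bins that hold a RefSeq start site were below the mean of the remaining bins of the gene in all 3 libraries for Tet1, Tet2, Tet3, Tdg and Uhrf2, 5 of 9 genes against 36.1% of 9198 genes that could be compared. This comparison was chosen after the bins were seen. In Tdg the start bin (82620001 to 82630000) lies mostly upstream of the gene, which begins at 82629814, and also overlaps 1190007I07Rik. In Tet3 the start bin had 1.249%, 1.68% and 1.34% against 2.23%, 2.42% and 2.10% for the rest, in control DDD-seq, CSD DDD-seq and control ACE-seq. The listed start of Tet3 lies inside the annotated body, in the second bin from the 5′ end. The first bin, which holds no listed start, was also low, with 1.32%, 1.76% and 1.18%. In Tet1 it had 1.13%, 1.38% and 1.10% against 1.55%, 1.65% and 1.67%. In Dnmt1, whose 3 starts share a bin, the start bin was the higher one, with 1.29%, 1.31% and 1.36% against 1.16%, 1.11% and 1.01%. Without the highest bin of each gene the count fell to 4, because in Uhrf2 the peak bin sets the mean of the remaining bins. The median ratio of start bin to rest was 0.727, 0.840 and 0.819 over the 9 genes and 0.917, 0.914 and 0.926 over all genes compared.

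The comparison of the 2 DDD-seq libraries asked whether 5hmC over these genes differed after sleep deprivation. None of the 9 genes was at least 25% higher or at least 20% lower, against 5.46% of all genes higher and 5.68% lower. With CSD, 5 genes had higher and 4 lower values, with a median difference of 0.00502 points, against -0.00381 points over all genes, 48.9% of which were higher.

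Tdg had the largest difference of the 9 genes relative to its scatter over bins. Its 4 bins, from the 5′ end, had 1.05%, 1.62%, 1.20% and 1.64% in control DDD-seq and 1.13%, 1.98%, 1.58% and 2.06% in CSD DDD-seq. All 4 were higher in CSD DDD-seq, a mean difference of 0.309 ± 0.076 points and a ratio of 1.22. It was the only one of the 9 genes beyond 2 SE, 11.1% of them, where 5.54% of all genes were beyond that bound in this direction and 5.98% in the other, so this share rests on 1 gene and is near the background. Control ACE-seq, also without sleep deprivation, had 1.18%, 2.25%, 1.02% and 1.68% in these bins, and lay 0.153 ± 0.172 points above control DDD-seq. The first and last bins (82620001 to 82630000 and 82650001 to 82660000) are shared with 1190007I07Rik and Glt8d2. Both lie mostly outside Tdg, which spans 82629814 to 82650799. Over the other 2 bins Tdg had 1.41% and 1.78%, which is past the bound of 25%.

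The oxidase genes were each higher in CSD DDD-seq by less than 2 SE: Tet1 by 0.111 ± 0.144 points, Tet2 by 0.165 ± 0.238 and Tet3 by 0.218 ± 0.134. With medians over bins in place of means, the difference became -0.0203 points in Tet1 and -0.220 in Tet2, so that no direction can be given for these genes. In Tet3, 7 of 10 bins were higher. The difference was -0.171 ± 0.165 points in Dnmt3a, -0.0586 ± 0.197 in Dnmt3b, -0.0338 ± 0.116 in Dnmt1 and 0.00502 ± 0.205 in Uhrf1. By medians it became 0.148 points in Dnmt3b and -0.0511 in Uhrf1, so these too have no direction.

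Uhrf2 had the widest difference in points, -0.487 ± 0.451, and most of it came from the peak bin, which was 3.09 points lower in CSD DDD-seq and 2.05 points lower in control ACE-seq. Without that bin the CSD minus control difference of Uhrf2 was -0.0529 points, and by medians over bins it was 0.0672 points. Of its 7 bins, 3 were higher and 4 lower.

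**Figure D4:**
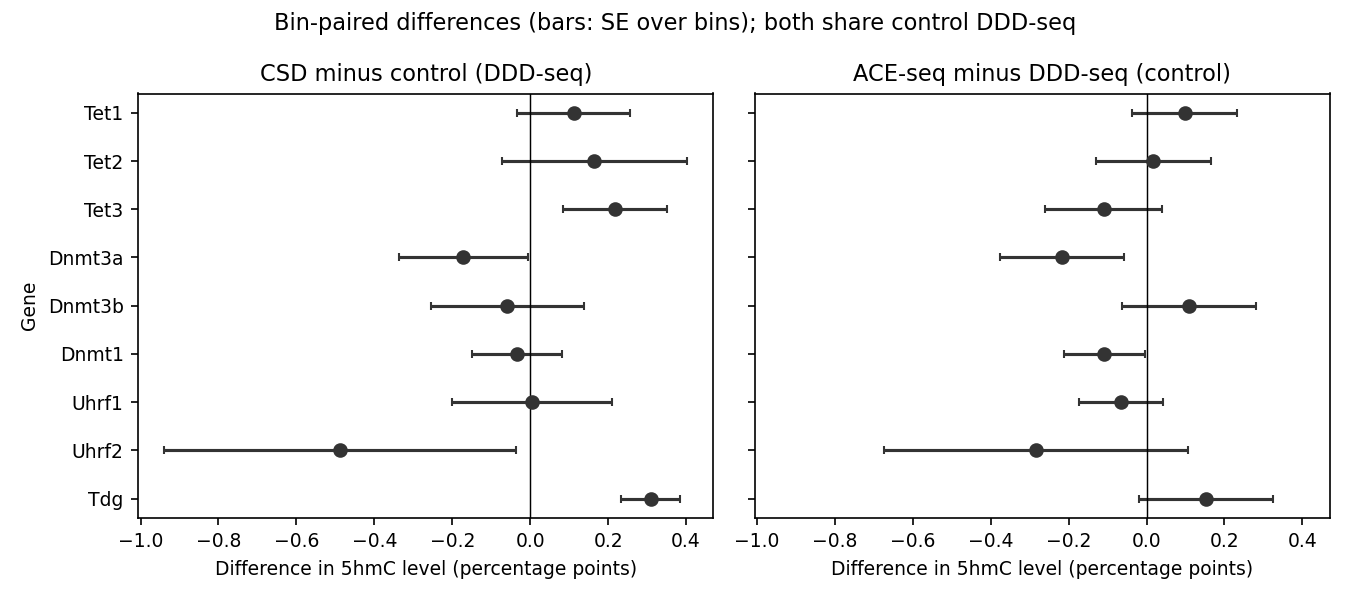
Differences in gene-body 5hmC in percentage points (x axis) of the 9 genes (y axis), CSD minus control by DDD-seq on the left and ACE-seq minus DDD-seq control on the right; points are means of bin-paired differences and bars are SE over bins. Tdg on the left, at 0.309 points, is the only point more than 2 SE from 0.

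The remaining comparison set ACE-seq against DDD-seq in control tissue, with the same reference library as the preceding one. By the same bounds none of the 9 genes differed, against 5.25% of all genes higher and 9.35% lower by ACE-seq. None was beyond 2 SE, against 4.08% higher and 8.91% lower. The differences were 0.0980 ± 0.134 points in Tet1, 0.0175 ± 0.147 in Tet2 and -0.110 ± 0.151 in Tet3. They were -0.217 ± 0.160 in Dnmt3a, 0.109 ± 0.172 in Dnmt3b, -0.108 ± 0.104 in Dnmt1, -0.0659 ± 0.108 in Uhrf1 and -0.284 ± 0.390 in Uhrf2. Without the highest bin of each gene, the sign of this difference changed in Tet2, Uhrf1, Uhrf2 and Tdg. The median over the 9 genes was -0.0659 points, close to the -0.0430 points of all genes.

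The rest of the pathway was read from 5 lists of 40 genes, all of which were found in the gene table and 25 of which covered at least 3 bins. Of these 25, 6 exceeded their flanks by at least 25% in all 3 libraries, where 17.3% of all genes did, and they came from 2 of the lists. In the list of methyl-CpG binding proteins and their relatives these were Mbd2, Mbd5 and Zbtb38, 3 of 5 measured genes, and among TET partners and cofactors Cxxc4, Ogt and Slc23a2, 3 of 8. None of the 5 base excision and demethylation genes, the 2 other 5hmC binding genes or the 5 methyltransferase partners did so.

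Mbd5 on chromosome 2, which belongs to the methyl-CpG binding domain family by sequence although its protein is not known to bind methylated CpG, had the highest level of the 25 genes in control DDD-seq, 3.03% ± 0.22, with 2.88% ± 0.18 in CSD DDD-seq and 2.86% ± 0.19 in control ACE-seq. Its flanks had 2.16%, 2.09% and 1.87%. In control DDD-seq the lowest gene of that list was Mbd1, which had 1.21%, 1.30% and 1.34%. Ogt, which encodes the O-GlcNAc transferase that binds TET proteins, was the highest of the partners and cofactors in control DDD-seq with 2.51%, 2.62% and 2.67%, and D2hgdh, a hydroxyglutarate dehydrogenase gene, the lowest there with 1.22%, 1.62% and 1.31%. The list headed by Mbd5 had medians of 1.99% in control DDD-seq, 1.93% in CSD DDD-seq and 1.73% in control ACE-seq. Those of partners and cofactors were 1.46%, 1.68% and 1.61%, so the lists lay furthest apart in control DDD-seq.

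The remaining lists had medians from 1.19% to 1.51%, where those of all genes ran from 1.39% to 1.43%. Base excision and demethylation genes had a median of 1.51% in control DDD-seq, 1.19% in CSD DDD-seq and 1.29% in control ACE-seq. Taken gene by gene, their median CSD minus control difference was only -0.0634 points. It was -0.378 in Lig3 and -0.314 in Parp1, but 0.0455 in Neil3 and 0.166 in Polb. In control DDD-seq the glycosylase gene Neil3 was highest (1.53%) and the scaffold gene Xrcc1 lowest (1.14%). Methyltransferase partners and methyl donor genes had medians of 1.40%, 1.43% and 1.21%, from the chromatin remodeller gene Hells with 0.962% to the deubiquitinase gene Usp7 with 1.85% in control DDD-seq. Of the other 5hmC binding genes, Hmces had 1.82% and Wdr76 1.19%. The 15 genes of fewer than 3 bins ranged from 0.921% in Dppa3 to 2.45% in Zbtb33 in control DDD-seq.

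Between CSD and control DDD-seq, 2 of the 25 genes, D2hgdh and Hells, were higher by at least 25%, and 3, Zbtb4, Lig3 and Parp1, were lower by at least 20%, where 5.46% and 5.68% of all genes were. Between ACE-seq and DDD-seq, Hells was higher and Lig3, Dnmt3l and Ahcy were lower, 1 and 3 of 25 genes, where 5.25% and 9.35% of all genes were. These comparisons share control DDD-seq, so their values are given side by side: Hells had 0.962% there against 1.29% and 1.21%, and Lig3 1.52% against 1.14% and 0.987%.

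**Figure D5:**
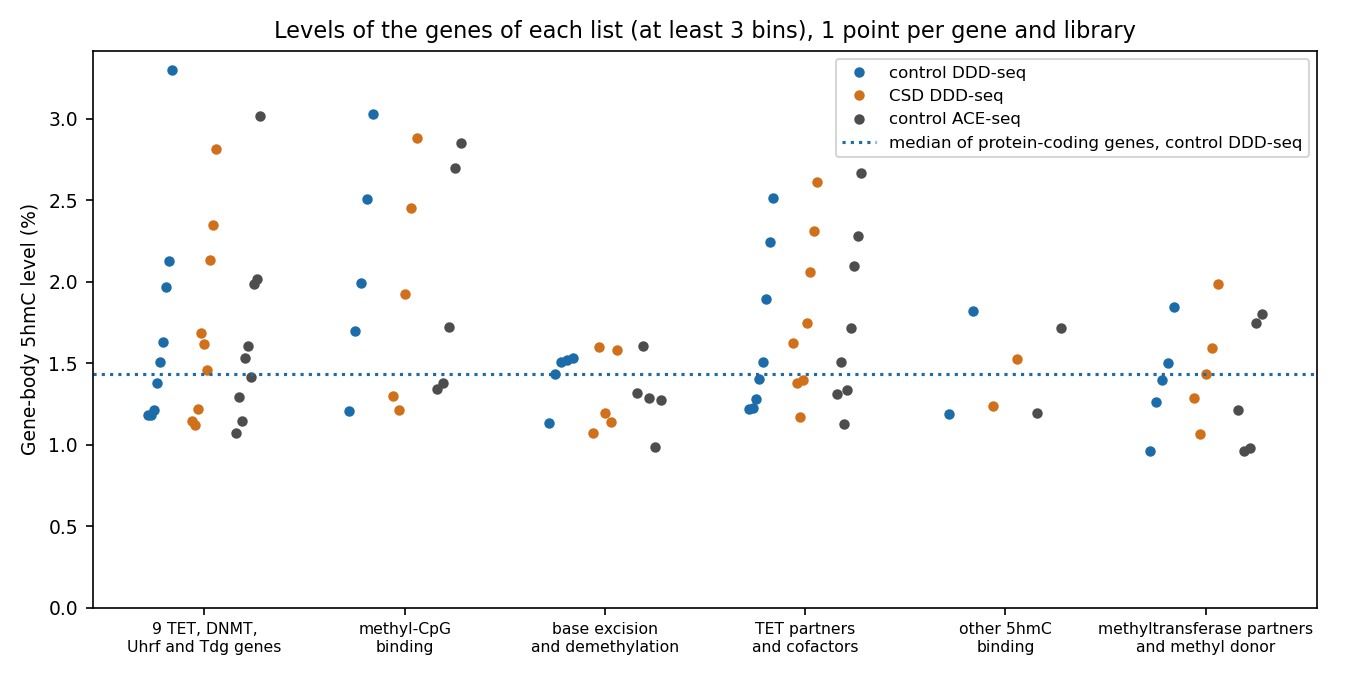
Gene-body 5hmC level in percent (y axis) of the 9 genes and of the 25 further pathway genes of at least 3 bins, by list (x axis); each point is 1 gene in 1 library, and the dotted line is the median of all protein-coding genes in control DDD-seq (1.43%). The list of methyl-CpG binding proteins and their relatives reaches 3.03% and the base excision genes stay at or below 1.61%.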

How the data were processed

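The authors deposited 1 fraction (0 to 1) of cytosine read as 5hmC per 10 kb bin and library; fractions were multiplied by 100 here. FastQC, Trimmomatic and Bismark were used, per the submitters' processing notes. The averaging within bins, the cytosine contexts and any filter on coverage are not stated in these sources, and depth is unknown, so no interval or per-site test was possible. Levels include any unconverted cytosine. Both DDD-seq columns are named "all", so they may pool several runs. The notes name hg19, but the bins cover 21 mouse chromosomes, each ending 1.33 to 211.9 kb after the last gene of the RefSeq GRCm38.p6 table, and were treated as GRCm38. The ACE-seq library was taken as a control from its treatment label.

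A bin belonged to a gene when they overlapped by at least 1 bp, and bins needed a value in all 3 libraries. Flanks are the 10 bins on either side. Strands and start sites came from the RefSeq promoter table. In its overlapping promoters on opposite strands, 1908 of 1908 pairs were reverse complements. The table holds no exons, so exon and intron were not assigned. Differences were taken bin by bin. A gene counted as different when at least 25% higher or 20% lower. All 9 genes are named. Of each further list, the highest and lowest gene of at least 3 bins are named, and genes past a bound were named after their values were seen. Polb was also named after its value was seen. For the highest and lowest of the 9 genes, those most alike are also named, as are genes in the flanks. One gene of these lists is not reported here. The genes and lists were chosen with earlier results of these data known. Calculations used Python 3.11.15, numpy 2.4.6, pandas 2.3.3 and scipy 1.17.1, and were tested on simulated data. Alternatives varied bin assignment, averaging, zeros, missing bins, outlying bins, shared bins, flanks and library offset.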

Additional observations from a re-analysis of the deposited data

How the results depend on the processing

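No paired analysis was possible because each group holds 1 library. The median over the 9 genes stayed between 1.43% and 1.54% in control DDD-seq, 1.44% and 1.65% in CSD DDD-seq and 1.38% and 1.63% in control ACE-seq. The count of genes at least 25% above their flanks was 3 or 4. Tdg joined Uhrf2, Tet3 and Tet2 in CSD DDD-seq with a cover of at least 50% of the bin, a mean weighted by overlap, wider flanks and without shared bins. Against gene-free flank bins, with Tet3 not measured, the genes were Tet2, Uhrf2 and Tdg, and in control DDD-seq also Dnmt3a. No share over all genes was computed for that setting. With a bound of 50%, Tet2 fell out in control DDD-seq, leaving 2 genes. The count of genes past the bounds of 25% higher or 20% lower between CSD and control went from 0 to 1, in each case Tdg, with a cover of at least 50% of the bin, with a mean weighted by overlap, with the median over bins and without shared bins, the last added after the data were seen. Without shared bins it also went from 0 to 1, Uhrf1, between ACE-seq and DDD-seq (-0.279 points over the 1 bin left). The cause was not tested. Of 72 recomputed gene differences each, the sign changed in 7 for sleep deprivation and 5 for the method, none of them past the bound. The settings for bins at 0 and for missing bins returned the main values for all 9 genes, so no sign could change there. With medians over bins, the sleep deprivation difference changed sign in Tet1, Tet2, Dnmt3b, Uhrf1 and Uhrf2. Leaving out bins at 0 did not touch the gene-body levels, since no bin of these genes was at 0.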

Other observations

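The genes named here beside Uhrf2, Tet2 and Tet3 had lower levels than these 3 genes. In the flanks of Uhrf2, Il33, a cytokine gene, had 1.22% in control DDD-seq, 1.37% in CSD DDD-seq and 1.49% in control ACE-seq, and Gldc, which encodes a subunit of the glycine cleavage system, had 1.43%, 1.38% and 1.28%. Beside Tet2, the pyrophosphatase gene Ppa2 had 1.67%, 1.66% and 1.58%. Beside Tet3, the 7 genes of at least 3 bins ranged from Dguok with 1.17% to Bola3 with 1.66% in control DDD-seq. Next to Tdg the genes of at least 3 bins were higher in control DDD-seq, with Glt8d2 at 1.77%, Hcfc2 at 1.70% and Nfyb, a subunit gene of the transcription factor NF-Y, at 1.92%, against 1.38% in Tdg. These values are not separate, since Nfyb lies inside Hcfc2 and Glt8d2 shares a bin with Tdg. On the other side of Tdg, 1190007I07Rik, with 2 bins of which 1 is shared with Tdg, had 1.01%, 1.01% and 1.27%, below Tdg in each library. Beside Tet1, with 1.51% in control DDD-seq, the 5 genes lay on both sides of it, from Dna2 with 1.21% to Ccar1 with 2.04%. In control ACE-seq Ccar1 had 1.59%, against 1.60% in Tet1. Around the low gene Uhrf1, the 4 genes of at least 3 bins ranged from Dpp9 with 1.19% to Ptprs with 1.40% in control DDD-seq. Of these, the histone demethylase gene Kdm4b had 1.26%, 1.23% and 1.32%, and the receptor phosphatase gene Ptprs 1.40%, 1.39% and 1.23%.

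Among 682 other genes of 7 bins, the levels nearest to those of Uhrf2 over the 3 libraries were those of Rtn3 (3.10%, 2.94% and 3.04%), Ube2k (3.10%, 2.67% and 3.05%) and Rmnd5a (3.29%, 3.07% and 3.21%). Among 879 other genes of 6 bins, those nearest to Dnmt1 were Ramp1 (1.249%, 1.14% and 1.07%), Tbx20 (1.20%, 1.12% and 1.11%) and Pdzk1 (1.18%, 1.20% and 1.10%).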
